A study of Mus musculus with 24 samples.

Results

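The constitutive proteasome subunit genes of the mouse heart were followed in *Xinβ* KO and WT animals, with and without an active form of YAP. The members are the protein-coding genes of the GENCODE M21 annotation named *Psma1* to *Psma8*, *Psmb1* to *Psmb7*, *Psmc1* to *Psmc6*, any *Psmd* gene and *Psme1* to *Psme4*, which leaves out the immunoproteasome genes *Psmb8*, *Psmb9* and *Psmb10*. The rule took 39 genes on 16 chromosomes, of which 38 were listed and tested among the 15667 listed genes of the uninjected hearts and the 15327 of the injected hearts. *Psma8* (ENSMUSG00000036743), the alpha subunit of the testis, was not listed in either table.

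The 26S proteasome is a cytosolic and nuclear protease made of a 20S barrel and 19S caps. The outer rings of the barrel are built from alpha subunits, which gate the entrance, and the inner rings from beta subunits, among them the proteolytic ones encoded by *Psmb5*, *Psmb6* and *Psmb7*. The base of the 19S cap holds the ATPases that unfold substrates (*Psmc* genes) and the lid removes ubiquitin chains, while the PA28 and PA200 proteins bind the barrel in place of a 19S cap. In the heart the proteasome turns over sarcomere and signalling proteins, and cells that lose proteasome activity raise the transcription of most subunit genes together through the factor NRF1, encoded by *Nfe2l1*.

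Hearts of postnatal day 7.5 mice were studied in 6 groups of 4 libraries. The KO animals carry a germline replacement of part of *Xinβ* (*Xirp2*), a gene of the intercalated disc that joins cardiomyocytes, in a C57BL6 background, and the WT animals were littermates. The groups named WT and *Xinβ* KO received no injection, and the other groups received AAV9 under the skin on postnatal day 1, carrying either GFP (WT/GFP and *Xinβ* KO/GFP) or the human YAP S127A, which escapes an inhibitory phosphorylation (WT/YAP S127A and *Xinβ* KO/YAP S127A). Both transgenes were driven by a cardiac troponin T promoter, which is active in cardiomyocytes, whereas the RNA came from whole ventricle tissue. Labels call the tissue heart apex and the methods call it ventricles.

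*Xirp2* was between 0.291 and 0.692 CPM (reads relative to the scaled size of the library) in *Xinβ* KO hearts and between 106 and 168 CPM in WT hearts. In the injected hearts the *Xinβ* KO libraries did not exceed 0.972 CPM, and the WT libraries were at 56.0 CPM or above, so every library matched its genotype label. Which virus a library had received was not checked, since the YAP transgene is human and mouse *Yap1* lay between 80.9 and 93.6 CPM in all injected hearts. The libraries held between 15015038 and 31154155 reads on listed genes, and the 38 members between 176 and 6257 reads in a library. The 6 cardiomyocyte markers summed to between 48016 and 80627 CPM in a library, while the 5 T and B cell markers were not listed in the uninjected hearts and summed to at most 3.02 CPM in the injected ones. Uninjected and injected hearts were sequenced and scaled separately, so no test spans them.

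The level of the members per length of transcript was uneven. Across the 38 genes of the WT hearts, the mean level per kilobase of annotated exon ran from 3.06 CPM for *Psmd5* to 85.2 CPM for *Psma6*, a 27.8-fold range, with a median of 27.7 CPM. In WT/GFP hearts it ran from 2.77 CPM for *Psmd5* to 115 CPM for *Psmb5*, with a median of 29.2 CPM. The lowest member of each group was thus the base chaperone *Psmd5*, which does not belong to the finished 26S particle.

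Within the 20S barrel of WT hearts, the alpha gene *Psma6* had 85.2 ± 5.60 CPM per kilobase (SD, n = 4) and *Psma3* had 17.1 ± 0.72. Among the beta genes, *Psmb2* had 69.7 ± 7.58 and *Psmb1* had 22.9 ± 1.22 CPM per kilobase. In the 19S base the ATPase *Psmc5* had 77.1 ± 4.52 and *Psmc2* had 20.6 ± 0.49 CPM per kilobase, and the scaffold *Psmd2* had 44.9 ± 4.12 against 18.97 ± 0.11 for the scaffold *Psmd1*. These gaps between members of 1 ring or base were larger than the spread between hearts.

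In the lid, *Psmd7* had 42.1 ± 1.52 and *Psmd11* had 7.20 ± 0.65 CPM per kilobase. Of the base chaperones, *Psmd10* (gankyrin) had 8.85 ± 0.87 and *Psmd5* had 3.06 ± 0.31. Among the activators, *Psme1* (PA28 alpha) had 30.3 ± 2.23 and *Psme4* (PA200) had 15.3 ± 1.68. The order and the size of the gaps depend on the transcript length used. *Psmc2* has 5031 bases of annotated exon and a principal transcript of 1785, whereas *Psmc5* has 1394 and 1316. With the length of the principal transcript, *Psmb6* was the highest member in all 6 groups, at 146 CPM per kilobase in WT hearts, and over the 31 genes of the finished 26S particle the range was 9.07-fold. Some members share sequence with other genes: 54.1% of the 50-base stretches of *Psmb5*, 50.0% of *Psma5* and 28.3% of *Psme2* also occur in transcripts of other genes, against 5.47% for *Psme1* and none for *Psmd4* and *Psme4*. Matches on either strand were counted. The genes sharing most were *Gm3375*, *Mir686* and *Psmb5-ps* for *Psmb5*, and *Gm8394*, *Gm12989* and *1700010K24Rik* for *Psma5*. Of these, *Mir686* overlaps *Psmb5* on the same strand and *1700010K24Rik* overlaps *Psma5* on the other strand. Reads of 50 bases were used for the uninjected hearts and longer paired reads for the injected ones, for which the shares were not computed.

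**Figure D1:**
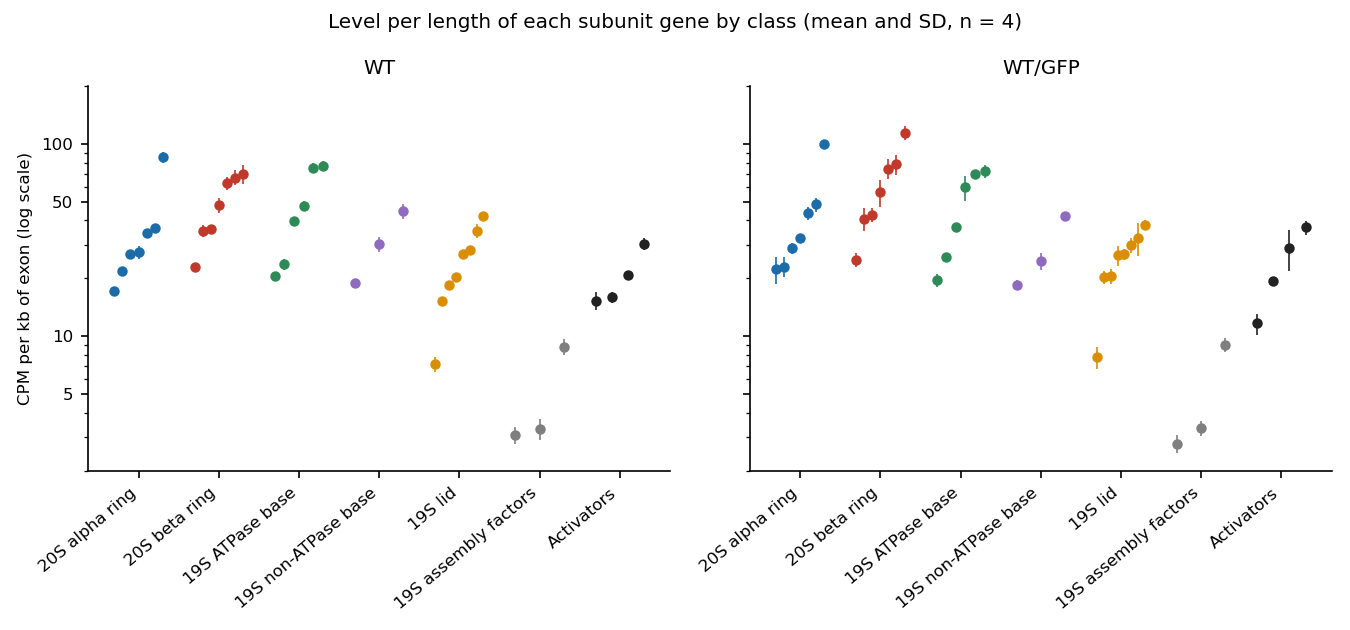
Mean level of each of the 38 genes in CPM per kilobase of annotated exon (log scale) in WT and WT/GFP hearts, grouped by class, with bars for the SD over 4 libraries. The 3 assembly factors (at or under 9.04 CPM per kilobase) and the lid gene *Psmd11* are the lowest points in both groups, and the highest and lowest gene of each class are farther apart than their bars, while neighbours often are not.

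The uninjected comparison asks how loss of *Xinβ* bears on the genes of the proteasome. None of the 38 members passed the test in *Xinβ* KO against WT hearts (adjusted p under 0.05, limma), while 6.69% of the 15598 tested genes did. The number of genes called, 1044 with all libraries, was 379 when WT replicate 1 was dropped and 2098 when *Xinβ* KO replicate 4 was, and it moved by more than 1.5 times whichever of the 8 was left out, with no member called in any of these fits. An unadjusted p under 0.05 was reached by 4 members (*Psmd4*, *Psme4*, *Psmd12* and *Psmd13*), all with higher levels in the KO, against 22.5% of all genes, and both edgeR and DESeq2 called none. The log2 fold changes of 35 of the 38 members were above 0, with a median of 0.13, against 50.2% and a median of 0.00 for all tested genes.

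One library stood apart. In *Xinβ* KO replicate 1 the 38 genes summed to 4492 CPM, compared with 3207, 3495 and 3527 CPM in the other *Xinβ* KO hearts and 3183, 3179, 3259 and 3357 CPM in the WT hearts. The beta ring stood out most, with 1118 CPM against 651 to 694 CPM in the other KO hearts and 615 to 725 CPM in WT hearts. Without this library the median log2 fold change of the members was 0.03 and 26 of 38 were above 0, and without *Xinβ* KO replicate 2 it was 0.21. With CPM on plain column totals the median was -0.00, but there the median of all genes moved to -0.12, so the members lay 0.12 above all genes compared with 0.13 in the scaling of the deposited values. The called genes were 504 higher and 540 lower in the deposited scaling, and 353 higher and 1241 lower with plain column totals.

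**Figure D2:**
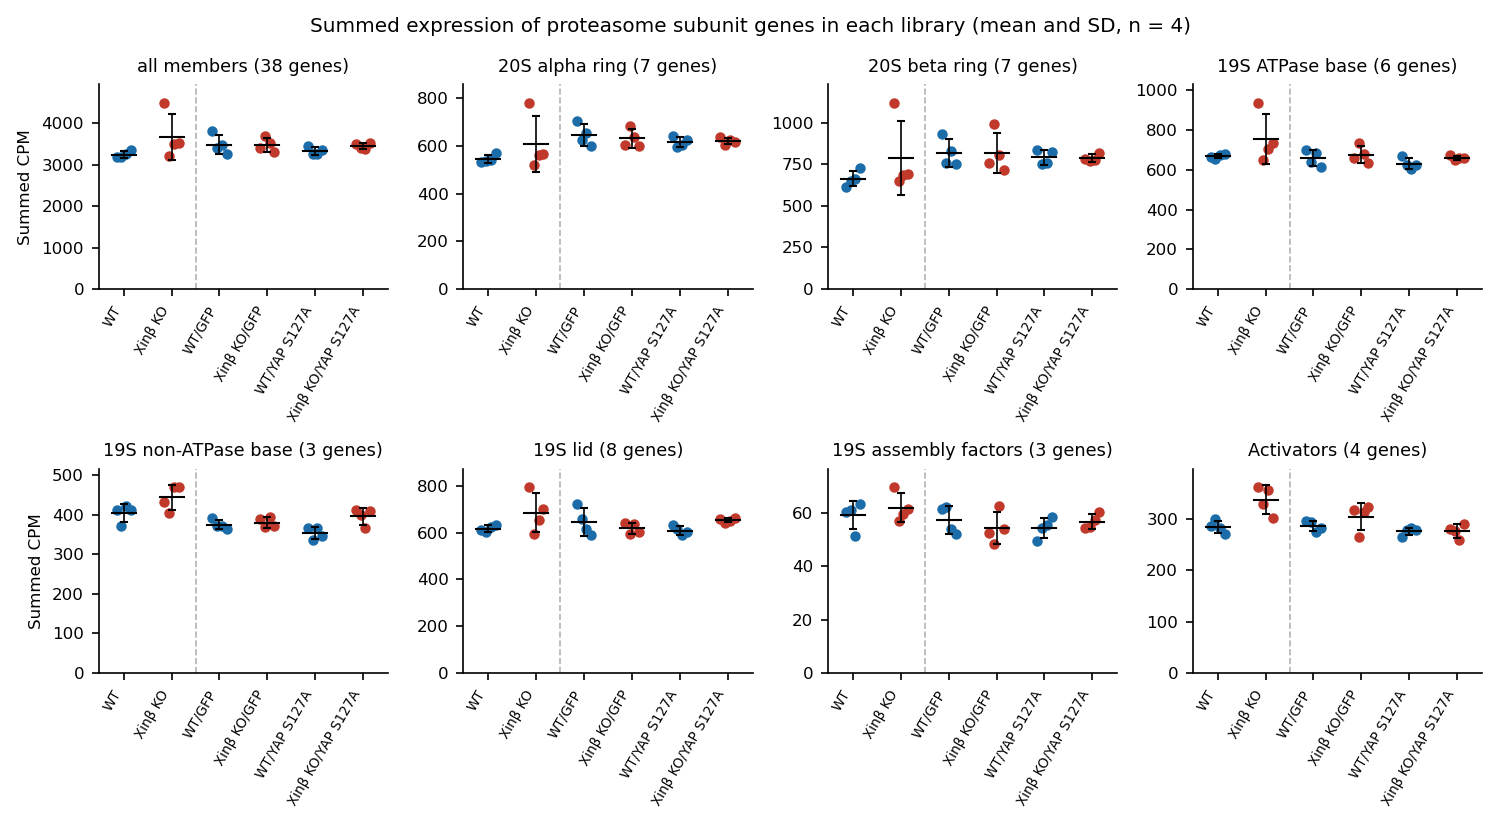
Summed CPM of the members in each library (points), with the mean (line) and SD (bar) of each group of 4, for all 38 genes and for each class. Blue points are WT and red points *Xinβ* KO, and the dashed line parts the separately scaled uninjected and injected hearts. The highest point of all, 4492 CPM, is *Xinβ* KO replicate 1, and for all 38 genes the groups of injected hearts overlap.

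In the same library, expression moved with transcript length. The 19 members with principal transcripts of up to 1540.5 bases were a median 0.67 above the WT mean on the log2 scale, and all 19 lay above it, whereas the 19 longer members were a median 0.35 above it with 15 above. Over all tested genes of this library the 5197 genes with transcripts up to 1894 bases had a median deviation of 0.38, the 5194 with transcripts over 3622 bases had -0.37 and those between had 0.01. In the other 7 uninjected libraries these medians stayed between -0.04 and 0.05. The part of transcript length in the member values was not tested.

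**Figure D3:**
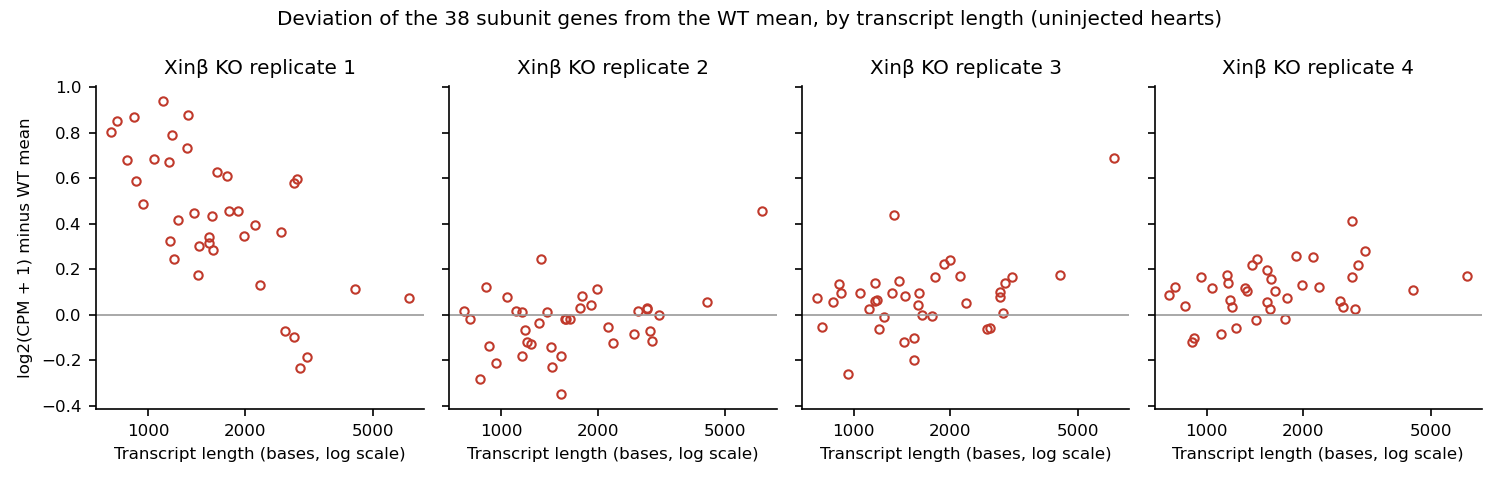
Difference in log2(CPM + 1) of each of the 38 genes from the WT mean (vertical axis) against the length of its principal transcript in bases (log axis), in each of the 4 uninjected *Xinβ* KO libraries. In replicate 1 most short genes lie well above 0 and the longer ones lie on both sides of it, while in the other replicates the genes lie closer to 0 (medians of -0.02, 0.08 and 0.11, with 16, 27 and 32 of 38 genes above 0 in replicates 2, 3 and 4), with 1 or 2 genes in each more than 0.3 from it (*Psmd14* and *Psme4* in replicate 2, *Psmd4* and *Psme4* in replicate 3, *Psmd11* in replicate 4) against 28 in replicate 1.

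*Psmd4*, the ubiquitin receptor of the 19S base, had the largest difference. It was at 157, 101, 115 and 91.1 CPM in the *Xinβ* KO hearts and at 87.6, 74.2, 86.8 and 91.1 CPM in the WT hearts, so 3 KO hearts lay above every WT heart and replicate 4 was level with the highest. The log2 fold change was 0.42 (95% interval 0.05 to 0.79, adjusted p = 0.169), and 0.26 without replicate 1 (adjusted p = 0.142).

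*Psme4*, which encodes the PA200 activator, was at 135, 176, 207 and 144 CPM in the *Xinβ* KO hearts and at 138, 143, 119 and 114 CPM in the WT hearts. Here replicate 1 was the lowest of the KO hearts. The log2 fold change was 0.35 (95% interval 0.01 to 0.68, adjusted p = 0.206), and 0.44 without replicate 1 (adjusted p = 0.0771).

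*Psmb5*, the chymotrypsin-like subunit, was at 110.2, 65.3, 65.9 and 55.1 CPM in the *Xinβ* KO hearts and at 52.9, 59.3, 63.1 and 65.1 CPM in the WT hearts. Only replicate 1 lay clearly above the WT hearts, and the log2 fold change of 0.25 (adjusted p = 0.515) was 0.05 without it. At the other end, *Psmd10* (-0.03), the nuclear activator gene *Psme3* (-0.02) and the lid deubiquitinase *Psmd14* (-0.01) had log2 fold changes near 0, with 95% intervals that stayed within 0.35 of 0 on either side. *Psmd14* turned above 0 with median-ratio scaling, edgeR and DESeq2.

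The groups did not overlap for 3 members, the lid genes *Psmd12* and *Psmd13* and the ATPase gene *Psmc2*, all higher in the KO, which is 7.89% of the members where 8.01% of all genes did so. *Psmd12* was at 102, 76.6, 86.9 and 89.0 CPM in *Xinβ* KO hearts and at 72.5, 75.5, 76.2 and 72.6 CPM in WT hearts, with a log2 fold change of 0.25 (adjusted p = 0.191). For 25 of the 38 members the 95% interval of the log2 fold change lay within 0.5 of 0 on both sides, against 39.2% of all genes. The interval that reached farthest was that of *Psmd4*, to 0.79. The median SE was 0.13 for the members and 0.16 for all genes, and a smaller SE narrows the interval.

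By class, the median log2 fold change was 0.11 for the 7 alpha genes, 0.23 for the 7 beta genes, 0.15 for the 6 ATPases, 0.07 for the 3 other base genes, 0.16 for the 8 lid genes, 0.07 for the 3 assembly factors and 0.14 for the 4 activators. No class had a called member. All alpha, beta and ATPase genes had log2 fold changes above 0 in the deposited scaling. These values rested in part on *Xinβ* KO replicate 1. Without it the median was -0.01 for the alpha genes, with 3 of 7 above 0, 0.02 for the beta genes, with 6 of 7 above 0, and 0.05 for the ATPases, all 6 of them above 0, while the activators had -0.01 and the assembly factors -0.03. The lid stayed at 0.13 and the non-ATPase base genes were at 0.15.

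Markers of other cells moved with the genotype in the same hearts. The 6 macrophage markers summed to between 26.4 and 45.3 CPM in the *Xinβ* KO and between 68.3 and 85.4 CPM in the WT, with 5 called lower. The 4 neutrophil markers, all called higher, summed to between 44.9 and 99.1 CPM in the KO and between 4.65 and 10.2 CPM in the WT. Of the other lists, 2 of 5 fibroblast, 1 of 5 endothelial and 1 of 5 smooth muscle markers were called lower and 1 of 6 cardiomyocyte markers higher, and no erythroid marker was called. The 6 dividing-cell markers had a median log2 fold change of -1.45 with none called. They summed to 67.9, 98.0, 49.4 and 463 CPM in the *Xinβ* KO and to between 350 and 469 CPM in the WT, so 3 KO hearts lay far below every WT heart and replicate 4 among them. In bulk tissue, fewer cells of a type and less RNA per cell cannot be told apart, and the part of these cells in the member values was not tested.

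In the injected hearts the *Xinβ* KO/GFP and WT/GFP groups repeat the genotype comparison under a control virus. Again none of the 38 members passed the test, while 13.7% of 14597 tested genes did. The 1993 genes called became 1263 without *Xinβ* KO/GFP replicate 1 and 1262 without replicate 4. An unadjusted p under 0.05 was reached by 2 members (*Psmd8* and *Psmd14*) and 27.4% of all genes, and edgeR and DESeq2 called none. The median log2 fold change of the members was -0.01, equal to that of all genes, and 13 of 38 were above 0 compared with 48.8% of all genes. For 35 of the 38 members the 95% interval lay within 0.5 of 0, against 43.5% of all genes. In this and the other injected comparisons of 2 groups the median SE was 0.096 for the members and 0.157 for all genes. A smaller SE narrows the interval, so these shares also reflect precision. With plain column totals the median of all genes was -0.11, the called genes changed from 939 higher and 1054 lower to 590 higher and 1759 lower, and *Psma1* and *Psmd14* were called lower.

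The lid gene *Psmd8* had the lowest value. The *Xinβ* KO/GFP hearts had 92.2, 72.6, 84.5 and 74.9 CPM, and the WT/GFP hearts 118, 114, 78.1 and 88.3 CPM, so the groups overlapped. Its log2 fold change was -0.28 (95% interval -0.54 to -0.02, adjusted p = 0.148). *Psme2* (PA28 beta) followed at -0.24 (adjusted p = 0.252), which was -0.09 without WT/GFP replicate 1, and *Psmd14* at -0.23 (adjusted p = 0.170). Without WT/GFP replicate 3 *Psmd8* was called lower.

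The highest log2 fold changes were those of *Psme4* (0.31, adjusted p = 0.255), *Psmd4* (0.20, adjusted p = 0.200) and *Psmc2* (0.12, adjusted p = 0.314). *Psme4* had 144, 78.6, 122 and 154 CPM in the *Xinβ* KO/GFP libraries and 83.5, 109, 91.7 and 107 CPM in WT/GFP hearts. Replicate 2 of *Xinβ* KO/GFP was the lowest of the 8 hearts, the others of that group were above every WT/GFP heart, and without replicate 2 the gene was called higher. *Psmd4* had 83.6, 85.7, 70.4 and 78.9 CPM in the *Xinβ* KO/GFP libraries and 74.7, 68.6, 73.6 and 59.4 CPM in WT/GFP hearts, with 3 of the 4 KO hearts above the WT/GFP hearts.

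The groups did not overlap for 2 members, the alpha gene *Psma1* (lower in the KO) and the ATPase gene *Psmc6* (higher), or 5.26% against 15.3% of all genes. *Xinβ* KO/GFP replicate 2 and WT/GFP replicate 1 had the highest beta ring sums of the injected hearts, at 993 and 932 CPM, where the other 14 libraries lay between 716 and 834 CPM. In *Xinβ* KO/GFP replicate 2 the genes with short transcripts were a median 0.16 above the WT/GFP mean and those with long transcripts -0.12 from it, and the part of this in the member values was not tested. Without WT/GFP replicate 1, the median of the members was 0.04 and 26 of 38 were above 0. Among the cell markers, 5 of 6 macrophage, 5 of 6 erythroid, 5 of 6 dividing-cell, 3 of 5 fibroblast, 2 of 5 endothelial and 1 of 5 smooth muscle markers were called lower in the KO with GFP, and 2 of 3 neutrophil markers and 1 of 6 cardiomyocyte markers were called higher. The macrophage markers summed to between 26.7 and 72.8 CPM and between 82.5 and 124 CPM in these groups, and their part in the member values was not tested.

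Whether active YAP altered the genes in *Xinβ* KO hearts was asked by setting YAP S127A beside GFP in the KO. One of the 38 members passed the test, *Psme1*, which was lower with YAP S127A. Over all genes 14.8% passed in either direction and 6.92% were called lower; with plain column totals, the split of calls moved from 1146 higher and 1010 lower to 2156 higher and 591 lower. In that scaling the median of all genes was 0.13 and *Psma1*, *Psmd2*, *Psmd8*, *Psmd14* and *Psme3* were also called, all higher, while *Psme1* was still called lower. The median log2 fold change of the members was -0.01 and that of all genes 0.01. For 36 of the 38 members the 95% interval lay within 0.5 of 0, compared with 41.1% of all genes. An unadjusted p under 0.05 was reached by 6 members and 29.6% of all genes, and the groups did not overlap for 2 members (*Psma1* higher and *Psme1* lower) and 17.5% of all genes.

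*Psme1* (ENSMUSG00000022216, chromosome 14 from 55578123 to 55581529 of GRCm38, forward strand) encodes PA28 alpha, which forms with PA28 beta a ring that opens the 20S barrel to peptides and is known to be induced by interferon gamma. Its CPM was 61.6, 62.9, 61.4 and 69.8 in KO hearts with YAP S127A and 78.2, 101, 91.4 and 74.0 in those with GFP. The WT/GFP hearts had 89.9, 78.3, 83.0 and 74.2 CPM, and the WT/YAP S127A hearts 80.9, 72.2, 76.4 and 80.3 CPM. All 4 *Xinβ* KO/YAP S127A hearts lay below the other 12 injected hearts.

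The log2 fold change of *Psme1* against *Xinβ* KO/GFP was -0.42 (SE 0.10, 95% interval -0.62 to -0.21, adjusted p = 0.00902, limma). Dropping any 1 of the 8 libraries gave values from -0.48 to -0.34, all of them called. In a fit of these 2 groups alone the adjusted p was 0.0505, so the call rests on the spread estimated from all 16 hearts. Against WT/GFP the difference was -0.34 (adjusted p = 0.662) and against WT/YAP S127A it was -0.27 (adjusted p = 0.326); the difference between the YAP effects in KO and in WT hearts was -0.35 (95% interval -0.64 to -0.06, adjusted p = 0.133). None of these passed the test.

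Its partner *Psme2* (ENSMUSG00000079197, chromosome 14 from 55587441 to 55591113, reverse strand) did not pass. Its CPM was 39.8, 35.9, 40.1 and 40.7 in KO hearts with YAP S127A and 39.4, 43.5, 47.5 and 37.4 in those with GFP, and these groups overlapped. Its log2 fold change was -0.09 (adjusted p = 0.679). Against WT/GFP hearts, at 68.6, 46.9, 44.3 and 42.5 CPM, and WT/YAP S127A hearts, at 48.9, 41.7, 45.8 and 53.8 CPM, all KO hearts with YAP S127A were lower, by log2 fold changes of -0.34 and -0.27 (adjusted p = 0.760 and 0.454). The first was -0.18 without WT/GFP replicate 1.

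Promoter sequences from RefSeq (GRCm38.p6, 250 bases before to 50 after each start) matched 32 of the 39 members. The letters TGACNNNGC, the core of the element that NRF1 and NRF2 bind, were found on either strand in 6 of the 32 (18.8%, *Psmb5*, *Psmb6*, *Psmc6*, *Psmd9*, *Psmd12* and *Psme4*) and in 12.4% of 32851 promoters. GAAA followed by any 2 bases and GAAA, the core of the element of interferon-induced genes, were in 4 of the 32 (12.5%, *Psmb3*, *Psmd4*, *Psmd9* and *Psme1*) and in 3.44% of all promoters. CCAAT was in 12 of the 32 (37.5%) and in 37.4% of all. These are matches of letters in a window and not sites of binding.

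The stretches printed here show these letters in capitals for the called member *Psme1*, for the proteolytic *Psmb5* and for *Psmd4*, the member with the largest difference in uninjected hearts. Positions count from the RefSeq start of transcription, 5′ to 3′ on the strand of the gene. This start can differ from that of GENCODE: the *Psme1* stretch lies inside its GENCODE gene, which begins at 55578123. In *Psme1* (chr14:55578489-55578518, forward strand) the capitals at bases 10 to 19 after the start are this interferon element read on the other strand. In *Psmb5* (chr14:54618026-54618245, reverse strand) the capitals at -47 to -39 are TGACNNNGC. In *Psmd4* (chr3:95042615-95042864, reverse strand) they are CCAAT on the other strand at -95 to -91 and the interferon element, also on the other strand, at -80 to -71.
Psme1: gtttcgagctgtgcTTTCGCTTTCccttcc
Psmb5: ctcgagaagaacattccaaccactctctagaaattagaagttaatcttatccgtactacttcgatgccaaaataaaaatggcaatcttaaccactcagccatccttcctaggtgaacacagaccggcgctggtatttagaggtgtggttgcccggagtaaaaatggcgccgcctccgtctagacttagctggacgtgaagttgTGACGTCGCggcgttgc
Psmd4: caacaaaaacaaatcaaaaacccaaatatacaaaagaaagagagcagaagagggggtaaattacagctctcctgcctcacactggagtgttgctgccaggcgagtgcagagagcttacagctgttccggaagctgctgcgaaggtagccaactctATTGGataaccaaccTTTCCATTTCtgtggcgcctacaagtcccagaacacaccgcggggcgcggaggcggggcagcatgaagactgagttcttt

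**Figure D4:**
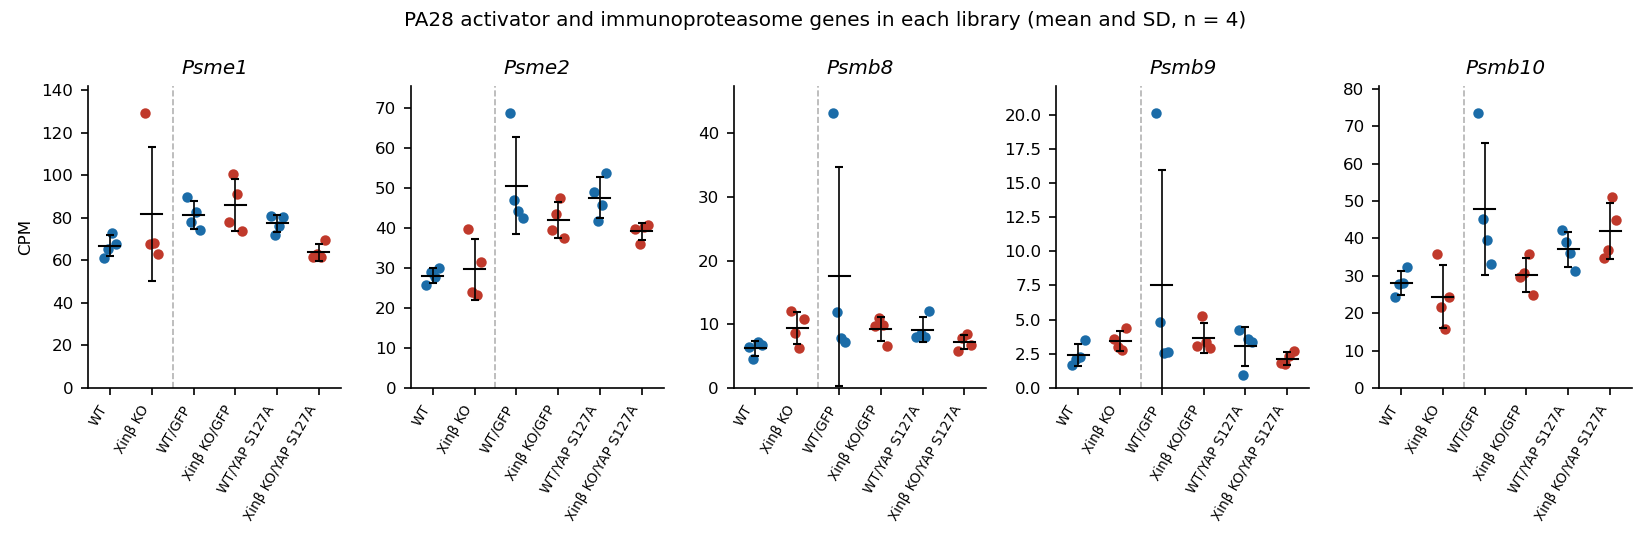
CPM of the PA28 genes *Psme1* and *Psme2* and of the immunoproteasome genes *Psmb8*, *Psmb9* and *Psmb10* in each library (points; blue WT, red *Xinβ* KO), with the group mean (line) and SD (bar, n = 4). *Psme1* in *Xinβ* KO/YAP S127A hearts lies at or under 69.8 CPM, below the other injected hearts, and WT/GFP replicate 1 is the highest injected heart for the other 4 genes.

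The other members with large differences did not pass. *Psmd8* had 90.2, 104, 97.8 and 107 CPM in the KO with YAP S127A against the values of 72.6 to 92.2 CPM in *Xinβ* KO/GFP hearts, with a log2 fold change of 0.30 (95% interval 0.04 to 0.56, adjusted p = 0.110). *Psme3* (0.24, adjusted p = 0.101) and *Psmd5* (0.24, adjusted p = 0.183) followed. *Psmd4* was at 64.7, 77.5, 58.8 and 65.6 CPM with YAP S127A and differed by -0.26 on the log2 scale (95% interval -0.47 to -0.04, adjusted p = 0.0973), and *Psmb3* had -0.15 (adjusted p = 0.498), which was -0.01 without *Xinβ* KO/GFP replicate 2. *Psmd4* was called lower without *Xinβ* KO/YAP S127A replicate 2.

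**Figure D5:**
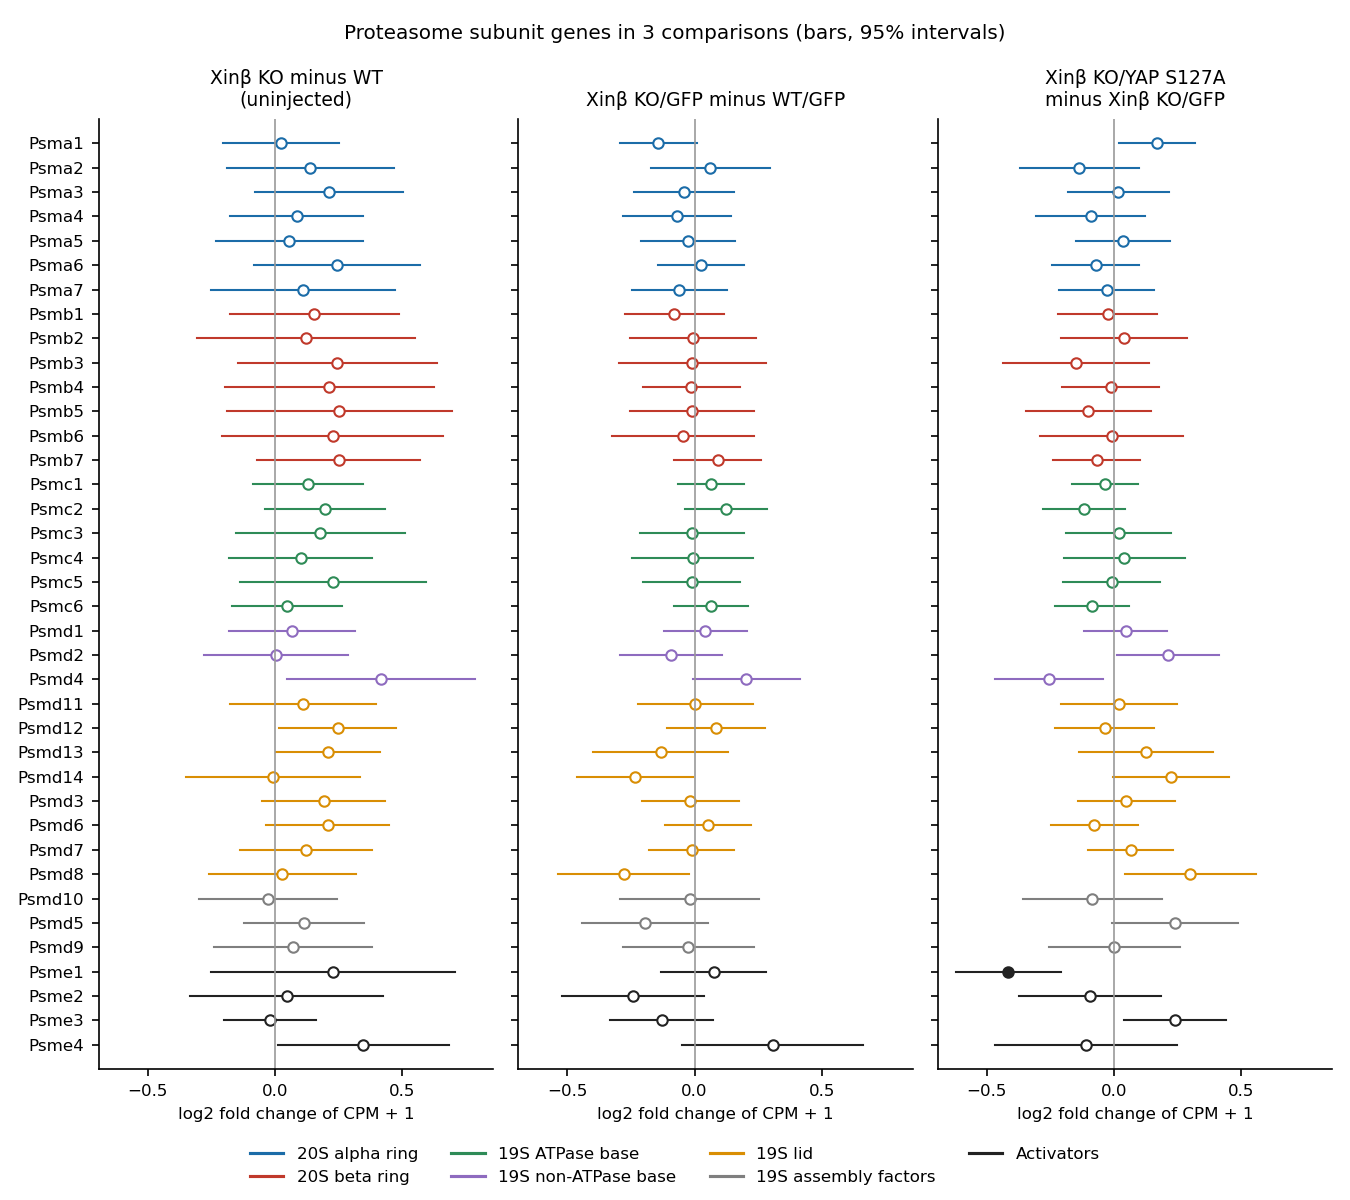
Log2 fold change of CPM + 1 (horizontal axis) with its 95% interval for each of the 38 genes in 3 comparisons, coloured by class; filled points passed the test. The only filled point is *Psme1* in the right panel, most points of the left panel lie right of 0, and those of the other panels lie on both sides of 0.

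The remaining comparisons share control hearts with those above, and their values are given side by side. When *Xinβ* KO/YAP S127A was set against WT/GFP, no member passed the test, where 0.0206% of genes did, and 2 members (*Psme1* and *Psme2*) against 6.08% of genes had an unadjusted p under 0.05. The same 2 members were lower without overlap, as were 2.32% of genes, and edgeR and DESeq2 called none. Log2 fold changes ran from -0.34 for *Psme1*, -0.34 for *Psme2* and -0.16 for the alpha gene *Psma4* to 0.11 for *Psme3*, 0.12 for *Psmd2* and 0.20 for *Psme4*, with a median of -0.01.

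In WT/YAP S127A against WT/GFP hearts 0% of genes passed the test (limma), with 6.93% at an unadjusted p under 0.05 and 7 higher and 4 lower by DESeq2. No member was called by limma, edgeR or DESeq2, and 1 member, *Psma6*, had an unadjusted p under 0.05 and was lower without overlap, as were 2.19% of genes. The log2 fold changes ran from -0.19 for *Psma6*, -0.16 for *Psmd8* and -0.16 for *Psmd14* to 0.03 for *Psmb7*, 0.04 for *Psma2* and 0.11 for *Psmd11*. Only those 3 members were above 0, against 48.8% of genes, and the median was -0.06 against -0.01 for all genes; without WT/GFP replicate 1, 11 members were above 0 and the median was -0.02. All 38 intervals lay within 0.5 of 0, against 57.7% of genes. With 1 library left out *Psmd11* ran from 0.04 to 0.18 and *Psmd8* from -0.27 to -0.07.

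*Xinβ* KO/YAP S127A hearts had no called member against WT/YAP S127A hearts either, with 0.0411% of genes called, 3 members and 11.1% of genes at an unadjusted p under 0.05 and no member called by edgeR or DESeq2. The groups did not overlap for 6 members (*Psmc3*, *Psme3* and *Psmd2* higher, *Psme1*, *Psme2* and *Psmb1* lower) and 9.23% of genes. *Psme1* (-0.27), *Psme2* (-0.27) and *Psma4* (-0.14) had the lowest log2 fold changes, and *Psmd2* (0.24), *Psme3* (0.21) and *Psme4* (0.20) the highest. The test of whether YAP S127A acted differently in KO and WT hearts called 7.56% of all genes and no member. An unadjusted p under 0.05 was reached by 7 members and 23.7% of genes, and edgeR and DESeq2 called no member. The 1104 genes called became 631 without WT/YAP S127A replicate 4 and 1474 without *Xinβ* KO/GFP replicate 2. The differences ran from -0.35 for *Psme1*, -0.18 for *Psmd4* and -0.17 for *Psma2* to 0.38 for *Psmd5*, 0.38 for *Psmd14* and 0.46 for *Psmd8*, and the smallest adjusted p was 0.0925 for *Psma1*. Without WT/GFP replicate 3 *Psmd8* was called (0.57, adjusted p = 0.0424). With plain column totals *Psma1* and *Psmd14* were called higher, where the median of all genes was 0.12 and the called genes were 884 higher and 345 lower instead of 554 and 550.

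The median spread between hearts of a group was lower for the members than for genes within their range of levels. The median SD of log2(CPM + 1) over the members was 0.083 in WT hearts, 0.24 in *Xinβ* KO hearts, 0.12 in WT/GFP, 0.15 in *Xinβ* KO/GFP, 0.094 in WT/YAP S127A and 0.089 in *Xinβ* KO/YAP S127A hearts. For genes in the same range of levels it was 0.11, 0.26, 0.15, 0.20, 0.14 and 0.14. These were 8247 genes in uninjected and 7826 in injected hearts, taken by range and not matched in level to each member. The *Xinβ* KO hearts varied most, in the members and in all genes alike.

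The immunoproteasome genes, which replace the proteolytic beta subunits in immune cells and under interferon, were not called in any of the 7 comparisons by limma, although edgeR and DESeq2 called *Psmb10* lower between genotypes under GFP, and DESeq2 also called it in the interaction (0.83, adjusted p = 0.0494). *Psmb8* was at 12.05, 8.7, 6.2 and 10.8 CPM in *Xinβ* KO hearts and at 6.4, 4.5, 7.3 and 6.8 CPM in WT hearts, with overlapping groups and a log2 fold change of 0.51 (adjusted p = 0.182). The values were 0.39 for *Psmb9* and -0.25 for *Psmb10* (adjusted p = 0.254 and 0.565). With 1 library left out *Psmb10* ran from -0.45 to -0.07. Only *Psmb8* had an unadjusted p under 0.05.

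In the injected hearts WT/GFP replicate 1 stood apart for *Psmb8* and *Psmb9*. *Psmb8* had 43.2, 11.9, 7.9 and 7.3 CPM in the WT/GFP libraries and 9.7, 10.98, 9.8 and 6.6 CPM in *Xinβ* KO/GFP hearts, and *Psmb9* had 20.1 CPM in WT/GFP replicate 1 and 2.6 to 4.9 CPM in the other WT/GFP hearts. Between genotypes under GFP the log2 fold changes were -0.49 for *Psmb8*, -0.47 for *Psmb9* and -0.60 for *Psmb10* (adjusted p = 0.425, 0.536 and 0.0516, limma). On recovered reads edgeR gave -0.91 for *Psmb8* and -1.04 for *Psmb9* (adjusted p = 0.184 and 0.247). DESeq2 gave the same log2 fold changes to 2 decimals (adjusted p = 0.115 and 0.185). Without WT/GFP replicate 1 the limma values of *Psmb8*, *Psmb9* and *Psmb10* were 0.05, 0.11 and -0.37. *Psmb10* was called lower by edgeR (-0.66, adjusted p = 0.0417), by DESeq2 (-0.66, adjusted p = 0.0152) and with plain column totals (-0.70, adjusted p = 0.0247, limma). It was also called without WT/GFP replicate 4 or without *Xinβ* KO/GFP replicate 3, and with 1 library left out its adjusted p ran from 0.0224 to 0.150. With YAP S127A rather than GFP in the KO the log2 fold changes of *Psmb8*, *Psmb9* and *Psmb10* were -0.32, -0.55 and 0.45 (adjusted p = 0.613, 0.431 and 0.130, limma).

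Genes of the interferon response are given beside them. Of 13 listed genes in the uninjected hearts, 6 were called higher in *Xinβ* KO and none lower (*Stat2*, *Irf7*, *Irf9*, *Isg15*, *Ifit1* and *Ifit3*, with log2 fold changes from 0.76 to 1.41 and adjusted p from 0.00271 to 0.026, limma). Dropping single libraries, *Ifit3* lost its call in 3 of 8 fits (adjusted p up to 0.0850), *Stat2* in 2 (up to 0.0637) and *Irf9* in 2 (up to 0.0590), and the other 3 kept theirs. Of 12 tested in the injected hearts, none was called by limma for genotype under GFP. DESeq2 called *Irf1* lower there (-1.30, adjusted p = 0.0458), and without WT/GFP replicate 1 limma called *Ifit1* (1.09, adjusted p = 0.0187) and *Isg15* (1.06, adjusted p = 0.0413) higher. By contrast the antiviral genes *Ifit1* (-1.62, adjusted p = 0.00828) and *Irf7* (-1.10, adjusted p = 0.0486) were called lower with YAP S127A than with GFP in the KO. *Ifit1* kept its call with any 1 library left out, whereas *Irf7* lost it in 7 of 8 such fits (adjusted p up to 0.126) and with edgeR (0.0503) and plain column totals (0.0647). The 13 genes summed to between 189 and 232 CPM in *Xinβ* KO/YAP S127A, 245 and 353 CPM in *Xinβ* KO/GFP, 230 and 289 CPM in WT/YAP S127A and 222 and 783 CPM in WT/GFP hearts, where replicate 1 had the 783 CPM and the next highest heart 387 CPM. Their part in the *Psme1* difference was not tested.

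Markers of other cells moved with YAP S127A in the KO. The 6 macrophage markers summed to between 84.0 and 106 CPM in the KO with YAP S127A and between 26.7 and 72.8 CPM in the KO with GFP, with 5 called higher. The 4 neutrophil markers summed to between 2.09 and 13.2 CPM and between 28.9 and 42.5 CPM in these groups, with 2 of 3 tested called lower. The 5 fibroblast markers summed to between 3341 and 4096 CPM and between 1548 and 2315 CPM, with 3 called higher. In addition 3 of 6 dividing-cell markers and 3 of 5 smooth muscle markers were called higher, 2 of 5 endothelial markers higher and 1 lower, and 1 of 6 cardiomyocyte markers lower, while no erythroid marker was called. The part of these cells in the *Psme1* difference was not tested.

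Among the factors known to control proteasome genes, 8 of 9 were tested, and *Nfe2l3* was not. *Nfe2l1* was higher in the KO with YAP S127A, at 103, 88.2, 77.0 and 116 CPM, than with GFP, at 78.1, 50.7, 54.2 and 75.8 CPM. Replicate 3 with YAP S127A lay just under the highest GFP heart. The log2 fold change was 0.57 (SE 0.17, adjusted p = 0.0362, limma), and leaving out single libraries gave adjusted p up to 0.104. In the same hearts the 38 members had a median log2 fold change of -0.01.

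*Nfe2l2*, which encodes NRF2, was at 79.3, 87.5, 71.5 and 74.8 CPM with YAP S127A and at 51.7, 57.3, 46.2 and 54.9 CPM with GFP in KO hearts, and these groups did not overlap. Its log2 fold change was 0.57 (SE 0.11, adjusted p = 0.0024), and it differed from the YAP effect in WT hearts by 0.57 (adjusted p = 0.0324). Between genotypes *Nfe2l2* did not pass, with log2 fold changes of -0.17 in uninjected hearts (adjusted p = 0.475) and -0.22 under GFP (adjusted p = 0.205), and with plain column totals the latter was called lower (-0.32, adjusted p = 0.0360). *Maff*, a small MAF partner of these factors, was called higher in *Xinβ* KO against WT (0.79, adjusted p = 0.020) and under GFP as well (0.91, adjusted p = 0.00543). With 1 uninjected library left out the adjusted p of *Maff* was up to 0.0743.

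The other 5 factors of that list did not pass in any of these 3 comparisons. *Nfe2l1* did not pass between genotypes, with log2 fold changes of -0.25 in uninjected and 0.07 in GFP hearts, and its value in *Xinβ* KO replicate 1 was 47.5 CPM where the other uninjected hearts had 110 to 136 CPM. The protease gene *Ddi2*, which frees NRF1 from the endoplasmic reticulum, had 0.06, 0.15 and -0.03, and the deglycosylase *Ngly1* had 0.13, -0.12 and 0.09. *Mafg* had -1.10, 0.41 and -0.35, of which the first was 0.01 without *Xinβ* KO replicate 1 (1.02 CPM, where the other uninjected hearts had 25.7 to 56.3 CPM). The values were 0.02, 0.10 and 0.29 for *Mafk* and -0.11, 0.19 and -0.18 for the repressor *Bach1*. Of the NRF2 targets, 1 of 8 was called in the uninjected KO, *Gsta4* (0.52, adjusted p = 0.0415, lost in 6 of 8 fits with 1 library left out, up to 0.135, and with plain column totals, 0.0764), and it was called lower with YAP S127A than with GFP in KO hearts (-0.56, adjusted p = 0.0129).

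Of 14 tested genes for other proteasome-bound factors and assembly chaperones, none was called by limma between KO and WT, uninjected or with GFP, while DESeq2 called *Adrm1* (0.35, adjusted p = 0.0167) and *Uchl5* (0.38, adjusted p = 0.0343) higher in uninjected KO hearts. *Usp14*, a deubiquitinase bound to the 19S base, was the 1 gene called by limma for YAP S127A over GFP in the KO, where DESeq2 also called *Uchl5* lower (-0.38, adjusted p = 0.0459). *Usp14* was at 54.0, 53.0, 48.1 and 50.8 CPM against 42.5, 38.9, 46.5 and 38.8 CPM, without overlap, with a log2 fold change of 0.30 (adjusted p = 0.0393), and the YAP effect differed between KO and WT hearts by 0.45 (adjusted p = 0.0459). With 1 library left out the adjusted p of *Usp14* was up to 0.101. None of 11 delivery factors, which bring substrates to the proteasome, was called in the same 3 comparisons by limma, edgeR or DESeq2.

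Ubiquitin ligases of muscle mark substrates such as sarcomere proteins for the proteasome. Of 10 tested, none was called in uninjected KO hearts, 2 were called higher in the KO under GFP and 1 was called lower with YAP S127A than with GFP in the KO. *Trim63* (MuRF1) was at 183, 154, 168 and 198 CPM in the KO with GFP, 110.3, 124, 150 and 137 CPM in the WT with GFP, and 123, 131, 132 and 164 CPM in the KO with YAP S127A. The KO hearts with GFP lay above every WT/GFP heart, and the log2 fold change was 0.43 against them (adjusted p = 0.0166). For YAP S127A against GFP in the KO it was -0.35 (adjusted p = 0.0429), and both comparisons use the *Xinβ* KO/GFP hearts. With 1 library left out the adjusted p of *Trim63* was up to 0.0601 in the first and up to 0.124 in the second, and both calls were lost with plain column totals (0.0737 and 0.195) and with only the 2 groups compared (0.0605 and 0.0919).

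*Mdm2* was also called in *Xinβ* KO/GFP hearts (0.35, adjusted p = 0.0217, and up to 0.0546 with 1 library left out), a call that was lost with plain column totals (0.0827). *Fbxo32* (atrogin-1) did not pass by limma, with log2 fold changes of 0.26, 0.68 and -0.50 in the 3 comparisons and adjusted p of 0.709, 0.0938 and 0.204. Between genotypes under GFP it was called higher by DESeq2 (0.74, adjusted p = 0.0343) and, by limma, without *Xinβ* KO/GFP replicate 3 (0.89, adjusted p = 0.0270). For the rest of the list the values in that order were 0.34, 0.21 and -0.34 for *Trim54*, -0.02, 0.33 and -0.10 for *Trim55* and -0.26, -0.14 and 0.26 for *Fbxo30*. They were -0.19, -0.10 and 0.19 for *Fbxo40*, 0.19, -0.04 and 0.03 for *Stub1*, 0.03, 0.37 and -0.03 for *Nedd4* and -0.24, -0.11 and 0.26 for *Itch*. Of these, *Trim55* was called higher between genotypes under GFP without WT/GFP replicate 3 or without *Xinβ* KO/GFP replicate 2, and *Trim54* was called lower with YAP S127A in the KO without replicate 3 of that group. *Fbxo40* was called higher there with plain column totals. In uninjected hearts with 1 library left out, *Itch* ran from -0.40 to -0.08, *Fbxo30* from -0.32 to -0.12 and *Fbxo40* from -0.24 to -0.06. The value of *Nedd4* under GFP ran from 0.01 to 1.13 with 1 library left out, as its level was 161, 717, 164 and 728 CPM in the WT/GFP and 775, 90.4, 675 and 818 CPM in the *Xinβ* KO/GFP libraries.

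Autophagy and chaperones are the other routes of protein quality control. Of 15 genes of autophagy and the lysosome, 2 were called higher in uninjected KO hearts, the mitophagy receptor *Bnip3* (1.04, adjusted p = 0.0253) and the protease *Ctsd* (0.49, adjusted p = 0.0228). With 1 library left out *Bnip3* lost this call in 5 of 8 fits (adjusted p up to 0.0840) and *Ctsd* in 4 (up to 0.0809), and *Ctsd* also lost it with plain column totals (0.0619). Between the genotypes under GFP, *Bnip3* (0.99), *Ctsd* (0.33), the adaptor *Sqstm1* (0.55) and *Map1lc3a* (0.25) were called higher and *Ctsb* lower (-0.27). Here *Bnip3* and *Sqstm1* kept their calls with any 1 library left out, whereas *Ctsb* lost its call in 6 of 8 fits (adjusted p 0.0302 with all libraries, up to 0.104), *Map1lc3a* in 5 (0.0421, up to 0.126) and *Ctsd* in 2 (0.0178, up to 0.0593). With plain column totals *Map1lc3a* (0.237) and *Ctsd* (0.145) were not called. The comparison of YAP S127A with GFP in the KO uses the same *Xinβ* KO/GFP hearts, so opposite signs are not independent results. With YAP S127A rather than GFP in the KO, *Bnip3* (-1.02), *Sqstm1* (-0.42) and *Map1lc3a* (-0.27) were called lower and *Ctsb* higher (0.24). *Ctsb* lost this call in 7 of 8 fits with 1 library left out (adjusted p 0.0445 with all libraries, up to 0.130) and with edgeR (0.0601), and *Map1lc3a* lost its call in 5 (0.0296, up to 0.0865) and with plain column totals (0.221), as did *Sqstm1* with plain column totals (0.0697).

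Of 14 cytosolic chaperone genes, *Hspb8* (-0.54) and *Hsph1* (-0.41) were called lower in the KO under GFP, and without WT/GFP replicate 1 the adjusted p of *Hsph1* was 0.0577. With YAP S127A in the KO, *Hspb8* (0.58), *Hsph1* (0.58) and the co-chaperone *Bag3* (0.49) were called higher. Here too both comparisons use the *Xinβ* KO/GFP hearts. None of the 14 was called by limma in uninjected hearts, where DESeq2 called *Hspb8* lower (-0.32, adjusted p = 0.0454).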

How the data were processed

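RNA-seq was carried out on 24 hearts in 6 groups of 4. The authors trimmed reads with cutadapt 2.3, checked them with FastQC, aligned them with HISAT2 2.1.0, assembled and quantified them with StringTie 1.3.4 against the mouse genome and normalised with edgeR 3.26.1. The deposited signal values are CPM on library sizes scaled by the trimmed mean of M values, with 1 table for uninjected and 1 for injected hearts. For the count tests reads were recovered from them. All values of the uninjected and at least 99.96% of those of each injected library were whole reads to within 0.05, and the rest were rounded. These reads derive from StringTie coverage rather than from direct counting. Library totals ran from 15015038 to 31154155 reads, and intervals reflect the spread between hearts, not pipeline error. The values turned out to be scaled CPM, so the main test was limma and not a count test.

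Log2(CPM + 1) was fitted with limma 3.58.1 (R 4.3.3), with a mean-dependent prior, in 1 model for each table. Genes above 1 CPM in at least 50% of a table's libraries were kept. P-values were adjusted by the Benjamini-Hochberg method over all tested genes, and those under 0.05 were called. Fold changes on this scale understate the change of low genes. Alternatives were edgeR 4.0.16 and DESeq2 1.42.0 on recovered reads, plain column totals, median-ratio scaling, a pseudocount of 0.1, no filter, only the groups compared, the replicate number as a block and each library left out in turn. Levels by principal transcript and classes of transcript length were added after seeing the data. The fit was tested on simulated data with known changes.

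The members and gene lists were chosen with earlier results of these data known. Genes named in full were the called members, the 3 highest and 3 lowest members of each comparison, the highest and lowest level of each class, and the immunoproteasome, transcription control and muscle ligase lists; of other lists, called genes were named. Members whose groups did not overlap, and listed genes called only by another tool or with a library left out, were named after their values were seen. Gene models were those of GENCODE M21 (GRCm38), which matched 15655 of 15667 and 15314 of 15327 listed identifiers. P-values measure the spread between hearts of a group. One further gene list is not reported here.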

Additional observations from a re-analysis of the deposited data

Results flagged for a closer look

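Some values lay far from the other 3 hearts of their group. *Psme1* was at 129 CPM in *Xinβ* KO replicate 1, against 63.0 to 68.1 CPM in the others, and the beta ring summed to 1118 CPM in the same library against 651 to 694 CPM. In WT/GFP replicate 1, *Psmb8* was at 43.2 CPM (7.29 to 11.9 CPM in the others), *Psmb9* at 20.1 CPM (2.56 to 4.85 CPM) and *Psme2* at 68.6 CPM (42.5 to 46.9 CPM). *Psmb8* was at 12.1 CPM in WT/YAP S127A replicate 4 (8.03 to 8.44 CPM), and the non-ATPase base genes summed to 370.1 CPM in WT replicate 2 (412 to 421 CPM). In all, 7 of 102 groups of 4 values held such a library, where chance sets apart about 1 in 20.

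By the interaction term of the limma fit, the effect of YAP S127A differed between KO and WT hearts for 6 of the named genes. Over all tested genes the term was called for 7.56%. These 6 were also called for YAP S127A over GFP in the KO. That comparison is part of the interaction, so the genes were partly chosen on the same values. The difference on the log2 scale was 0.57 for *Nfe2l2* (adjusted p = 0.0324), 0.45 for *Usp14* (0.0459), 0.80 for *Hsph1* (0.00582), 0.60 for *Bag3* (0.0176), 0.93 for *Hspb8* (0.00643) and -1.04 for *Bnip3* (0.00778). No member of the proteasome itself was among them. Of the cell markers, the same term was called for 3 of 5 fibroblast, 3 of 6 macrophage, 2 of 5 smooth muscle, 2 of 3 neutrophil, 1 of 5 endothelial and 1 of 6 cardiomyocyte markers.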

How the results depend on the processing

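Of the counts of called members and the member medians, 161 of 168 values under other settings and 188 of 192 with 1 library left out stayed within their limits. Within them the uninjected member median still fell from 0.13 to 0.03 without *Xinβ* KO replicate 1. The member median between genotypes under GFP went from -0.01 to 0.04 without WT/GFP replicate 1. With plain column totals, 2 members were called lower between genotypes under GFP (median -0.12), 5 higher for YAP S127A over GFP in the KO (median 0.12) and 2 higher in the interaction (median 0.15), and the all-gene medians moved by a like amount. With only the 2 groups compared, 0 members were called lower for YAP S127A over GFP in the KO. With 1 library left out, 0 to 1 members were called higher and 0 to 1 lower between genotypes under GFP, 1 to 2 lower for YAP S127A over GFP in the KO and 0 to 1 higher in the interaction. The cause was not tested.

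Same-numbered hearts did not deviate together (r from -0.19 to 0.14). With groups of 4 this cannot tell whether the numbers follow litters, so a pairing of the samples was not settled. With the replicate number as a block *Psme1* kept its call (adjusted p = 0.0231, limma) and no other member gained one, while 12 of 35 calls of single named genes were lost. These were *Ctsd* (0.0873), *Gsta4* (0.109), *Stat2* (0.0596), *Maff* (0.0555) and *Bnip3* (0.0512) in uninjected KO hearts, *Ctsb* (0.0599) and *Map1lc3a* (0.0806) between genotypes under GFP, and *Ctsb* (0.0799), *Irf7* (0.0777), *Map1lc3a* (0.0592), *Trim63* (0.0603) and *Usp14* (0.0751) for YAP S127A over GFP in the KO. Of the same 35 calls, 19 were lost in at least 1 fit with a library left out, 10 with plain column totals, 2 with edgeR and none with DESeq2, and of the 25 refitted with only the 2 groups compared 14 were lost. The latter were *Ctsb*, *Map1lc3a* and *Trim63* in both injected comparisons, *Ctsd*, *Hsph1*, *Maff* and *Mdm2* between genotypes under GFP, and *Gsta4*, *Nfe2l1*, *Psme1* and *Usp14* for YAP S127A over GFP in the KO. Of all genes, 1044 were called in uninjected KO against WT hearts, but 201 higher and 184 lower with the block, and in all 1594 with plain totals and 1951 by DESeq2. With only the 2 groups compared 930 instead of 1993 were called between genotypes under GFP and 1208 instead of 2156 for YAP S127A over GFP in the KO, and with the block 707 instead of 1104 in the interaction. DESeq2 called 24 instead of 3 for *Xinβ* KO/YAP S127A against WT/GFP and 71 instead of 6 against WT/YAP S127A, where only the 2 groups compared gave 15.

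Single genes that changed direction were not called. In *Xinβ* KO against WT, plain totals gave -0.113 for *Mafk*, -0.0040 for *Ngly1*, -0.113 for *Nedd4* and -0.0775 for *Ddi2*, and *Psmd14* was 0.0006 with median-ratio scaling, 0.0159 with edgeR and 0.0248 with DESeq2. Plain totals gave -0.0091 for *Mafk* and -0.0363 for *Nfe2l1* between genotypes under GFP, and 0.0986 for *Nedd4*, 0.0324 for *Trim55* and 0.0988 for *Ddi2* for YAP S127A over GFP in the KO. With 1 library left out, the uninjected ranges were -0.0251 to 0.0768 (*Mafk*), -0.0119 to 0.5723 (*Fbxo32*), -0.2659 to 0.1223 (*Bach1*), -0.1170 to 0.1052 (*Psmd14*), -0.0953 to 0.0293 (*Psmd10*), -0.0382 to 0.1621 (*Nedd4*), -0.4117 to 0.0861 (*Nfe2l1*), -1.6012 to 0.0074 (*Mafg*), -0.1035 to 0.0167 (*Trim55*) and -0.0651 to 0.1844 (*Ddi2*). Between genotypes under GFP they were -0.7575 to 0.0471 (*Psmb8*), -0.2056 to 0.0150 (*Itch*), -0.0439 to 0.1811 (*Nfe2l1*), -0.1402 to 0.0104 (*Stub1*) and -0.7456 to 0.1104 (*Psmb9*). For YAP S127A in the KO they were -0.7917 to 0.2903 (*Nedd4*), -0.0210 to 0.1296 (*Stub1*) and -0.1454 to 0.1139 (*Ddi2*). In the WT they were -0.0377 to 0.1190 (*Psma2*) and -0.0129 to 0.0782 (*Psmb7*).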
